A study of Mus musculus with 12 samples.

Results

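The 8 Krüppel-like factors Klf2, Klf3, Klf4, Klf6, Klf7, Klf9, Klf10 and Klf13 were followed in mRNA pulled down from the small intestinal muscularis of the mouse, before and early after surgical injury. They were chosen by gene name and are 8 of the 12975 genes in the count table. Their RNA rose within 3 h of injury in 7 of 8 cases, where 18.7% of all genes tested did, in the HA pull-down, the fraction meant to hold the ribosome-bound mRNA of enteric glial cells (EGCs), the support cells of the gut's own nervous system. In the isotype control pull-down of the same tissue, 4 of the 7 factors that could be tested rose as well, where 4.43% of all genes tested did. In HA, Klf10 rose 6.62-fold, Klf6 6.22-fold, Klf4 5.61-fold, Klf9 4.14-fold and Klf2 3.71-fold, Klf13 rose 1.74-fold and Klf7 1.60-fold, and Klf3 did not pass the test.

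All animals were PLPCreERT2 Rpl22HA mice (strain given as B6J.129(Cg)-Rpl22tm1.1Psam/SjJ), in which tamoxifen lets Cre recombinase put an HA tag on the ribosomal protein Rpl22 in cells where the PLPCreERT2 transgene is active. Every animal, the T0 animals included, received 2 intraperitoneal injections of 100 µl tamoxifen at 15 mg/ml when 10 to 12 weeks old, and was killed 3 to 4 weeks after the first. T0 animals were naïve and T3 animals were taken 3 h after intestinal manipulation, a laparotomy under anaesthesia in which the small bowel is rolled with a cotton applicator. The supernatant of each muscularis was split, 1 share was incubated with anti-HA and the other with a mouse IgG1 antibody, which gave the groups HA T0, IgG T0, HA T3 and IgG T3 with 3 libraries each from 6 animals in all. No group with anaesthesia and laparotomy but without manipulation was analysed here, so these steps cannot be told apart from the manipulation. The tag marks cells by the activity of that transgene, not by cell identity, and each library is a bulk sample, in which a change in the number of cells of a type and a change in RNA per cell cannot be told apart.

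Krüppel-like factors are transcription factors that bind GC-rich and CACCC sequences through zinc fingers at the end of the protein. Several are early response genes that are switched on within minutes to hours by serum, shear stress, cytokines or injury. Klf2, Klf4, Klf6 and Klf7 act mostly as activators, Klf9, Klf10 and Klf13 carry a domain that recruits the Sin3 corepressor, and Klf3 represses through the CtBP corepressor. In the gut, Klf4 is best known from the epithelium and from smooth muscle that changes its phenotype, Klf2 from endothelium and quiescent leukocytes, and Klf7 from growing axons.

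The HA libraries held 1221788 to 2870591 unique molecule counts, the IgG T0 libraries 388214 to 1289833 and the IgG T3 libraries 88136 to 248522. A count of 0 therefore allowed up to 2.46 CPM (the count scaled by the library's total) in the shallowest HA library but up to 34.0 CPM in the shallowest IgG T3 library, taking 3 counts as the limit; these limits cover counting error only. Glial markers set the HA libraries apart: 7 listed genes summed to 3342 to 4057 CPM in HA T0 against 144 to 197 CPM in IgG T0. At T3 they summed to 3970 to 4744 CPM in HA against 205 to 761 CPM in IgG. Over time in HA, 3 of the 7 rose and 1 fell, where 18.7% and 15.1% of all genes tested did. Gfap went from a mean of 118 to 1715 CPM, and Gpr37l1 from 1723 to 785 CPM. The median log2 fold change of the 7 in HA against IgG was 4.24 at T0 and 2.92 at T3. Transcripts of other cells were present in HA too: markers of interstitial cells of Cajal, the pacemaker cells, summed to 2606 to 3368 CPM in HA T0 against 240.0 to 318 CPM in IgG T0, and smooth muscle markers still reached 14830 to 22780 CPM in HA T0.

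**Figure D1:**
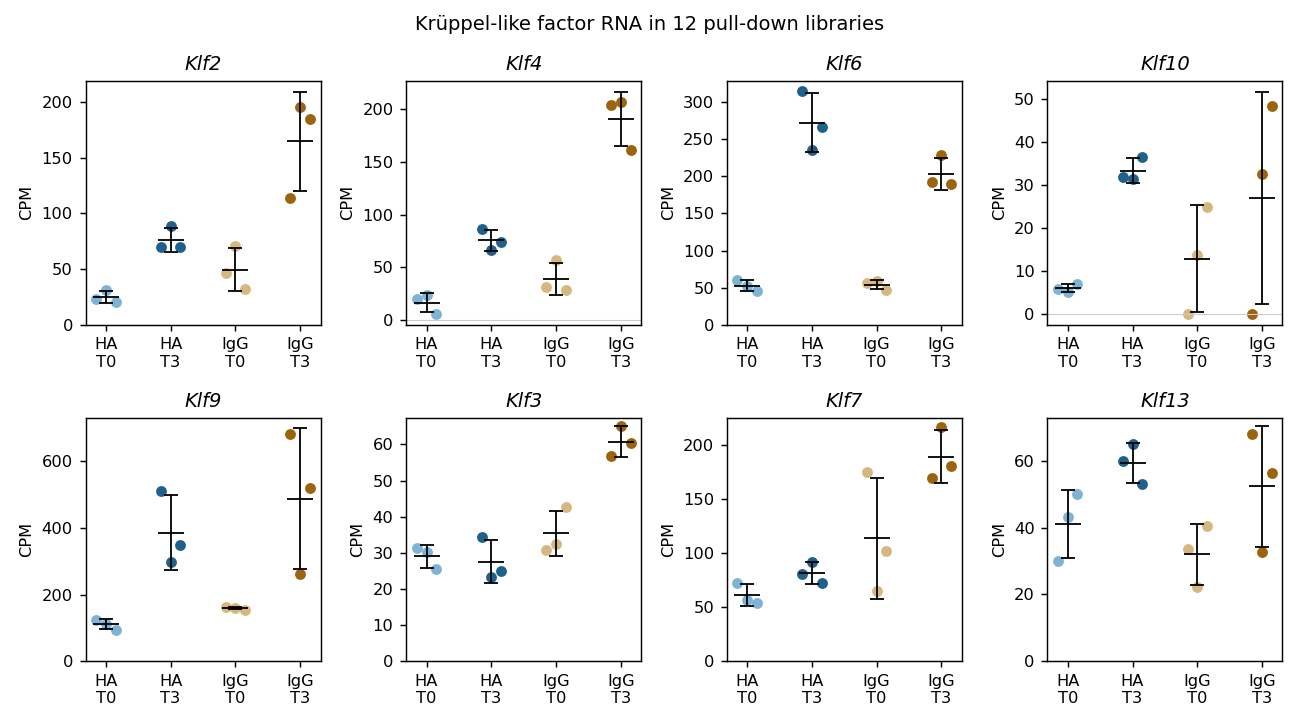
CPM (linear axes) of each Krüppel-like factor in the 12 libraries; points are libraries, horizontal lines the mean and bars the SD of 3 libraries. Klf2, Klf4, Klf6 and Klf9 stand higher at T3 than at T0 in both pull-downs, without overlap, while Klf3 in HA stays between 23.4 and 34.4 CPM at both times.

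Across all genes, HA T3 was compared with HA T0 by the edgeR quasi-likelihood test with an adjusted p under 0.05 as the threshold, and of the 9441 genes tested 18.7% were higher and 15.1% were lower at T3. Against that background, 7 of the 8 factors were higher and 0 were lower. The groups did not overlap in CPM, with T3 above T0, for 6 of the 8 factors and for 15.6% of all genes tested. The median log2 fold change of the 8 factors was 1.97, and that of all genes tested was -0.02. Scaling mattered for the balance of calls but not for the leading members: 55.4% of all calls were higher after TMM scaling, and 31.1% were higher when libraries were scaled by their totals, which moved the median of all genes to -0.29. CPM values are scaled by the totals and log2 fold changes by TMM, so a ratio of CPM means differs a little from the printed fold.

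Klf2 (chr8:72319033-72321656 on mm10, by the GENCODE M21 annotation, as are all gene positions here), the factor that keeps endothelium and T cells quiescent, was measured at 23.4, 31.3 and 20.2 CPM in HA T0 and at 69.6, 88.9 and 70.1 CPM in HA T3. In IgG it stood at 46.4, 70.3 and 31.8 CPM at T0 and at 113, 196 and 185 CPM at T3. Every T3 library was thus above every T0 library of the same antibody. The log2 fold change was 1.89 ± 0.23 (SE, n = 3 against 3) in HA (edgeR, adjusted p = 2.28e-06) and 1.78 ± 0.39 in IgG (edgeR, adjusted p = 0.0150). The IgG value rested on 10 to 46 counts per T3 library, and the call was lost without replicate 4 of IgG T0 (adjusted p = 0.109) or of IgG T3 (adjusted p = 0.110, both edgeR).

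Klf4 (chr4:55527143-55532466), one of the pluripotency factors and a regulator of smooth muscle and macrophage state, stood at 20.0, 23.5 and 5.92 CPM in HA T0 and at 85.9, 66.2 and 74.0 CPM in HA T3. In IgG it stood at 30.9, 56.6 and 28.7 CPM at T0 and at 204, 206 and 161 CPM at T3. Replicate 4 of HA T0 was the lowest library, with 17 counts, and T3 lay above T0 without overlap in both pull-downs. The log2 fold change was 2.49 ± 0.40 in HA (edgeR, adjusted p = 0.000984) and 2.27 ± 0.37 in IgG (edgeR, adjusted p = 0.00158).

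Klf6 (chr13:5861482-5870394), an activator induced in injured tissue and a tumour suppressor, was measured at 59.9, 52.0 and 45.3 CPM in HA T0 and at 315, 236 and 266 CPM in HA T3. The IgG values were 56.7, 58.3 and 47.3 CPM at T0 and 193, 228 and 189 CPM at T3. The T0 levels of both pull-downs overlapped, and at T3 every HA library was above every IgG library. That gap was narrow, 236 against 228 CPM at its closest, and the IgG T3 values rested on 17 to 47 counts per library. Klf6 rose by 2.64 ± 0.20 on the log2 scale in HA (edgeR, adjusted p = 2.42e-09), more than 97.9% of all genes tested, and by 1.89 ± 0.32 in IgG (edgeR, adjusted p = 0.00217).

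Klf10 (chr15:38291463-38300706), the TGF-β inducible early gene, rested on 9 to 20 counts in the HA T0 libraries and 39 to 47 in the HA T3 libraries. Its levels were 5.76, 5.03 and 6.97 CPM in HA T0 and 31.9, 31.4 and 36.6 CPM in HA T3. The spread within each HA group was small beside the gap between them. Its log2 fold change was 2.73 ± 0.29 (edgeR, adjusted p = 3.87e-07). In IgG, replicate 1 held 0 counts at both times, which allowed up to 7.73 CPM at T0 and up to 34.0 CPM at T3. The other IgG libraries held 13.7 and 24.8 CPM at T0 and 32.6 and 48.3 CPM at T3, the last pair from 3 and 12 counts. The times overlapped in IgG, and Klf10 was below the count filter for that test.

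Klf9 (chr19:23141226-23168134), which glucocorticoid and thyroid hormone induce in many tissues, stood at 125, 113 and 95.1 CPM in HA T0 and at 511, 297 and 347 CPM in HA T3. The IgG libraries gave 162, 159 and 155 CPM at T0 and 681, 261 and 519 CPM at T3. Levels at T3 were all above those at T0 but spread widely, with a coefficient of variation of 43.5% in IgG T3 against 2.29% in IgG T0. The log2 fold change was 2.05 ± 0.21 in HA (edgeR, adjusted p = 2.66e-07) and 1.60 ± 0.34 in IgG (edgeR, adjusted p = 0.0114). The IgG call was lost without replicate 2 or 4 of IgG T0 (adjusted p = 0.0870 and 0.0676) or replicate 4 of IgG T3 (adjusted p = 0.0706, all edgeR), at log2 fold changes of 1.54, 1.58 and 1.45.

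The log2 fold changes of Klf3, Klf7 and Klf13 in HA were below those of the other 5 factors. Klf3 (chr5:64803388-64832901), a repressor known from adipose and B cells, gave 31.5, 30.2 and 25.4 CPM in HA T0 and 34.4, 23.4 and 24.9 CPM in HA T3, which overlapped. Its log2 fold change in HA was 0.18 ± 0.25 (edgeR, adjusted p = 0.608) and was -0.08 when libraries were scaled by their totals. In IgG, Klf3 stood at 30.9, 32.6 and 42.6 CPM at T0 and at 56.7, 65.2 and 60.4 CPM at T3, without overlap, but a difference of 0.73 ± 0.41 on 5 to 15 counts per T3 library did not pass (edgeR, adjusted p = 0.333).

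Klf7 (chr1:64029447-64122282), an activator needed for axon growth in sensory neurons, gave 72.9, 57.0 and 54.3 CPM in HA T0 and 81.0, 92.3 and 72.4 CPM in HA T3. The highest T0 library reached above the lowest T3 library. The log2 fold change of 0.67 ± 0.20 passed (edgeR, adjusted p = 0.0142) but was not called with total counts (adjusted p = 0.111), with the 12 libraries fitted together (0.0742) or without replicate 4 of HA T0 (0.0714). IgG values were scattered, at 175, 65.1 and 102 CPM at T0 and 170, 217 and 181 CPM at T3, with a log2 fold change of 0.72 ± 0.39 (edgeR, adjusted p = 0.305). The counted window of Klf7 also holds Gm26649, a long noncoding RNA gene on the opposite strand that has no row of its own, and the sources used here do not say whether counting used strand.

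Klf13 (chr7:63886351-63938915), a Sin3-binding repressor known from T cells, gave 29.9, 43.0 and 50.2 CPM in HA T0 and 59.7, 64.9 and 52.9 CPM in HA T3, which did not overlap. The log2 fold change in HA was 0.80 ± 0.22 (edgeR, adjusted p = 0.00783) and was not called with total counts (0.53, adjusted p = 0.0710) or without replicate 1 of HA T0 (0.62, adjusted p = 0.0532). In IgG, the values of 33.5, 22.3 and 40.3 CPM at T0 and of 68.1, 32.6 and 56.3 CPM at T3 overlapped, with a log2 fold change of 0.68 ± 0.46 (edgeR, adjusted p = 0.428).

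Ordered by group mean, Klf2, Klf4 and Klf9 all ran from HA T0 through IgG T0 and HA T3 to IgG T3. No neighbours in that order overlapped for Klf4, whereas IgG T0 and HA T3 overlapped for Klf2 and the T3 groups overlapped for Klf9. Klf6 ran from HA T0 through IgG T0 and IgG T3 to HA T3, and its T0 groups overlapped. For Klf7, Klf10 and Klf13 every pair of neighbours overlapped, and for Klf3 IgG T3 alone stood clear of its neighbour.

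**Figure D2:**
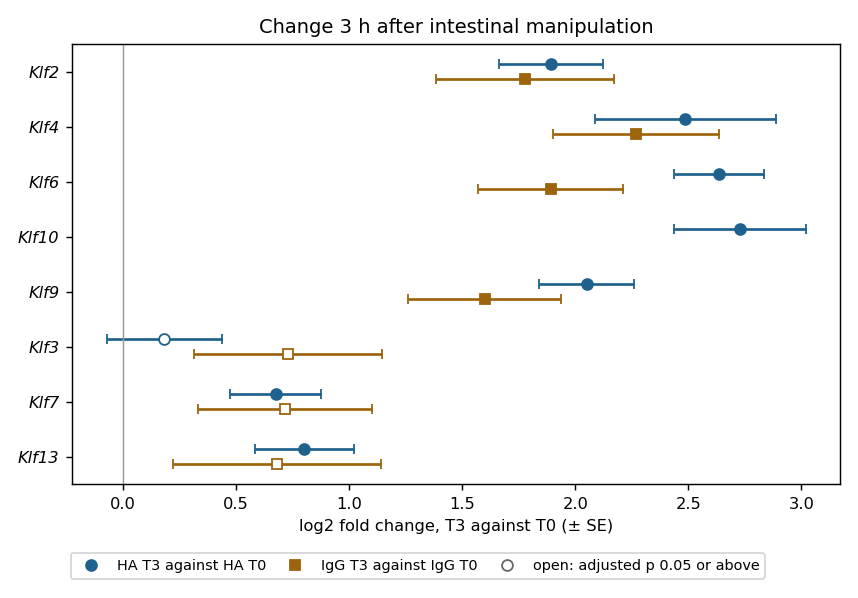
Log2 fold change between T3 and T0 with its standard error in HA (circles) and in IgG (squares), from edgeR fits of 6 libraries each; filled symbols have an adjusted p under 0.05. Klf2, Klf4, Klf6 and Klf9 are filled in both pull-downs, and Klf10 was not tested in IgG.

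In IgG, 4.43% of the 5219 genes tested were higher at T3, and 4 of the 7 tested factors were. The median log2 fold change of these 7 was 1.60 against -0.02 for all genes tested. T3 lay above T0 without overlap for 5 of the 8 factors, Klf3 being the one among them that was not called, and for 13.4% of all genes tested.

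The interaction term of antibody and time, fitted on all 12 libraries, asked if a factor rose by a different amount in each pull-down. None of the 8 factors passed, and 0.33% of the 10314 genes tested did (34 genes; 10.5% had an unadjusted p under 0.05). Before adjustment, 2 factors had a p under 0.05. They were Klf6, whose rise was 0.83 ± 0.35 larger in HA on the log2 scale (edgeR, adjusted p = 0.396), and Klf10, at 1.73 ± 0.81 (edgeR, adjusted p = 0.463). The IgG side of the Klf10 value rested on 0 to 32 counts per library at T0 and 0 to 12 at T3. Under the alternative settings the Klf10 value ran from 0.68 to 2.80. DESeq2 passed 80 genes and 0 of the 8 factors. The difference was 0.17 ± 0.44 for Klf2, 0.30 ± 0.53 for Klf4 and 0.54 ± 0.39 for Klf9. These data thus leave room for a difference of either sign for Klf2, Klf4 and Klf9. The median of all genes in this term was 0.18 with TMM and -0.18 with total counts, and the sign for Klf2, Klf4, Klf7 and Klf13 turned with it. Of all calls in this term, 91.2% were positive with TMM and 75.0% with total counts.

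The promoters of the 4 factors that rose in both pull-downs are shown, as the 250 bases before the start that RefSeq gives on GRCm38.p6, read 5′ to 3′ on the strand of the gene. Capitals mark matches, on either strand, to TGACG (the core of the CRE, the site of CREB and related factors) and to the MEF2 site; the CArG box and the NF-κB site were searched as well and would have been capitalised.
Klf2, chr8:72318812-72319061, plus strand: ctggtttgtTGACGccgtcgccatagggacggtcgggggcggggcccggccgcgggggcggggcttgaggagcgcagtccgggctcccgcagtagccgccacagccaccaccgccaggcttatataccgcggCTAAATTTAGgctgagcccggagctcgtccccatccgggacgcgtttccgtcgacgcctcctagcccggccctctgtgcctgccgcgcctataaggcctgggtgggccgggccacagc
Klf4, chr4:55532476-55532725, minus strand: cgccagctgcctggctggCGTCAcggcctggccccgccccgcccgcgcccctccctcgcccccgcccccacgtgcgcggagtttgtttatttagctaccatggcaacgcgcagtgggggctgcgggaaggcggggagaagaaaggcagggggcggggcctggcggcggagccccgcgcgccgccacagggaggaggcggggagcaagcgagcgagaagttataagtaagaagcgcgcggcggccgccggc
Klf6, chr13:5861239-5861488, plus strand: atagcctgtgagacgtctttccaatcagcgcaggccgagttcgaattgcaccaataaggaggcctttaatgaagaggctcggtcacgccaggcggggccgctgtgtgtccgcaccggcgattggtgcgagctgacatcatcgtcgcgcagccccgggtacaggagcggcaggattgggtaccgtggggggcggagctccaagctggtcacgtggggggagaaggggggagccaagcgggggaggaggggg
Klf9, chr19:23140976-23141225, plus strand: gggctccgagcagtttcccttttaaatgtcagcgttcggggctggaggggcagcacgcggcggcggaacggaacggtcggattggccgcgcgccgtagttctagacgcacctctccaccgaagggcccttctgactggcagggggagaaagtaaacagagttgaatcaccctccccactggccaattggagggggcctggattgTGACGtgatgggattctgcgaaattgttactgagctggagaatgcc
Of the 8 factors, 7 had a promoter in the RefSeq table, and Klf10 had none. TGACG or its complement stood in 4 of these 7 promoters (Klf2, Klf4, Klf9 and Klf13) and in 17.8% of all 32851 promoters of the same length. The MEF2 site stood in 1 of 7, that of Klf2, 118 to 109 bases before the start, and in 0.508% of all promoters. No promoter of the 7 held the CArG box (1.47% of all), the NF-κB site (7.25%) or the glucocorticoid response element (0.0304%). The last was searched as its palindrome without the final base. GGGCGG, the core of the GC box, stood in 6 of 7 and in 32.7% of all promoters, and CACCC in 5 of 7 and in 52.0%; matches of these motifs can share bases. The 4 printed promoters had a GC content of 59.6% to 74.0% against a median of 52.4% over all promoters. A match describes letters and was not tested as a binding site.

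HA was compared with IgG at each time to ask whether a factor held a larger or smaller share of the library in HA. IgG is an isotype control and not the input RNA, so a lower share in HA does not show depletion from tagged ribosomes. These comparisons share their libraries with those over time and are not independent of them. At T0, 14.4% of 9823 genes were lower in HA, and 1 of the 8 factors was, Klf2, at a log2 fold change of -0.98 ± 0.33 (edgeR, adjusted p = 0.0351). With the animal as a block, since both pull-downs of an animal come from a split supernatant, 4 factors and 19.8% of all genes tested were lower in HA. The factors were Klf4 at -1.42 ± 0.34 (adjusted p = 0.00167), Klf7 at -0.86 ± 0.23 (0.00382), Klf2 at -0.96 ± 0.28 (0.00720) and Klf9 at -0.57 ± 0.19 (0.0169, all edgeR). Without the block, the adjusted p was 0.0771 for Klf4, 0.0502 for Klf7 and 0.0556 for Klf9. The Klf2 call without the block was lost on leaving out replicate 1 or 4 of HA T0 or replicate 1 or 2 of IgG T0, with adjusted p-values of 0.0889, 0.132, 0.0532 and 0.208, and without the filter on low counts (0.0512).

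At T3, 10.2% of 7200 genes were lower in HA, and 3 of the 8 factors were. Klf4 differed by -1.21 ± 0.28 on the log2 scale (edgeR, adjusted p = 0.00485), Klf7 by -1.11 ± 0.28 (edgeR, adjusted p = 0.00772) and Klf2 by -1.06 ± 0.30 (edgeR, adjusted p = 0.0156). Klf3 had a similar difference, -1.06 ± 0.40, that did not pass (edgeR, adjusted p = 0.0667) but did with total counts (-1.16, adjusted p = 0.0477). Klf6 leaned the other way at 0.52 ± 0.27 (edgeR, adjusted p = 0.173), and Klf9, Klf10 and Klf13 lay between -0.26 and 0.23. Fitting all 12 libraries together ended the 3 calls (adjusted p = 0.0790 for Klf2 and Klf4, 0.0604 for Klf7) and called Klf6 higher in HA (0.80, adjusted p = 0.0217), while the median of all genes moved from 0.02 to 0.18. Without replicate 4 of HA T3 or of IgG T3, Klf4 alone among the 8 was called, and without replicate 1 of HA T3 (adjusted p = 0.0594) or without the filter (0.0625, both edgeR) the Klf2 call was lost.

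Within animals, the ratio of HA to IgG in CPM was below 1 in 3 of 3 animals at both times for Klf2, Klf4 and Klf7. It ran from 0.445 to 0.636 at T0 and from 0.379 to 0.613 at T3 for Klf2, from 0.206 to 0.646 and from 0.321 to 0.460 for Klf4, and from 0.417 to 0.875 and from 0.3999 to 0.476 for Klf7. Klf6 was close to even at T0, at 0.892 to 1.06, and above 1 in 3 of 3 animals at T3, at 1.03 to 1.63. HA and IgG did not overlap at T0 for 3 factors, all lower in HA, against 20.1% of all genes tested, and at T3 for 4 factors lower in HA, against 16.4%, and 1 higher, against 19.4%.

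**Figure D3:**
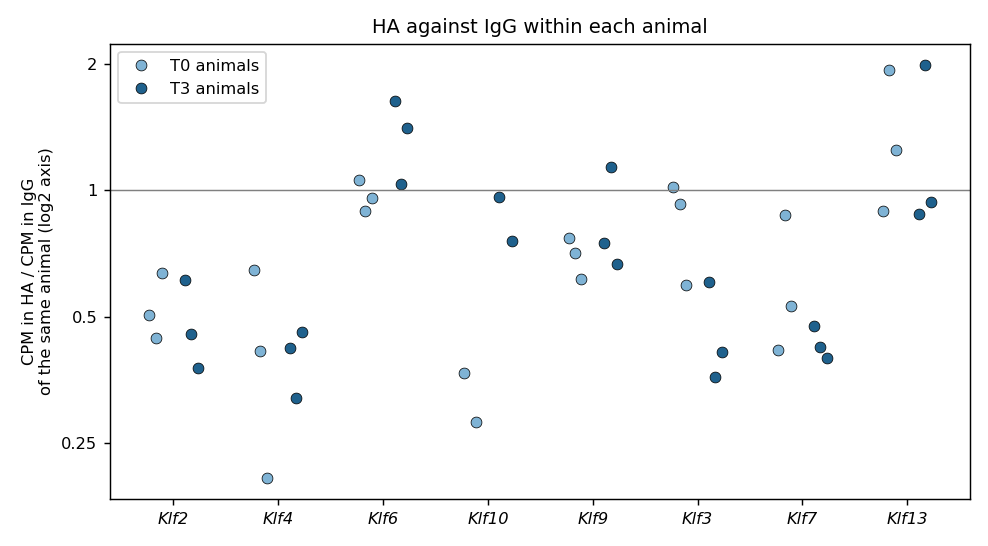
CPM in HA divided by CPM in IgG of the same animal (log2 axis) for each factor, 3 animals per time; 1 animal per time has no point for Klf10 because its IgG library held 0 counts. Klf2, Klf4 and Klf7 lie below 1 in every animal, and Klf6 lies above 1 in every T3 animal.

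Markers of other cells moved with these comparisons. The 7 endothelial genes summed to 15.7 to 29.1 CPM in HA T0, 32.1 to 35.8 in HA T3, 39.4 to 58.9 in IgG T0 and 43.5 to 56.7 in IgG T3. Of them, Cldn5 rose in HA by 2.42 ± 0.36 on the log2 scale (edgeR, adjusted p = 2.66e-05), and Pecam1, the other one tested, was at 0.10 ± 0.52 (edgeR, adjusted p = 0.897). Cdh5, Tek, Tie1 and Emcn had means under 3 CPM in both HA groups. Smooth muscle genes summed to 14830 to 22780 CPM in HA T0 and 44090 to 61440 CPM in IgG T0, and neuronal genes to 799 to 850.3 CPM and 1082 to 2524 CPM. At T3, smooth muscle genes summed to 12170 to 14540 CPM in HA and 39190 to 61350 CPM in IgG. Neuronal genes then summed to 836 to 1417 CPM in HA and 728 to 1774 CPM in IgG. With time, the summed neutrophil and monocyte genes went from 6.27 to 16.2 CPM to 22.1 to 116 CPM in HA. In IgG their sum went from 26.4 to 39.4 CPM to 43.5 to 249.6 CPM. S100a8 and S100a9 made up this rise, S100a9 going from a mean of 0.686 to 44.5 CPM in HA. The monocyte genes Plac8 and Ccr2 had lower means at T3, in HA (8.62 to 2.38 and 2.79 to 1.52 CPM) and in IgG (22.0 to 9.93 and 12.85 to 3.78 CPM). Macrophage genes went from 216 to 459 CPM to 126 to 201 CPM in HA. In IgG they went from 381 to 699 CPM to 402 to 539 CPM. Epithelial genes summed to 61.7 to 283 CPM in HA T0 and 439.6 to 804 CPM in IgG T0, and to 25.4 to 64.9 CPM in HA T3 and 125 to 374 CPM in IgG T3. Of them, 3 of 7 tested at T0 and 3 of 3 tested at T3 were lower in HA, where 14.4% and 10.2% of all genes tested were. Lower in HA too were 6 of 6 smooth muscle genes at both times, 5 of 5 mesothelial genes at T0 and 2 of 2 at T3. So were 5 of 5 fibroblast genes at T0 and 3 of 5 at T3. Of the neuronal genes 5 of 6 were lower in HA at T0 and 2 of 5 at T3. Of the macrophage genes 2 of 7 were at T0 and 2 of 2 at T3, and of the neutrophil and monocyte genes 2 of 2 and 0 of 2. Higher in HA were 7 of 7 glial genes at both times, and 2 of 3 genes of interstitial cells of Cajal at T0 and 2 of 2 at T3. Between T0 and T3, fibroblast genes went from 713 to 864 CPM to 163.5 to 339.7 CPM in HA. In IgG they went from 1949 to 2340.0 CPM to 599.5 to 1043 CPM. Genes of interstitial cells of Cajal went from 2606 to 3368 CPM to 1170.0 to 1535 CPM in HA. In IgG they did not fall in the same way, at 240.0 to 318 CPM and then 177 to 760 CPM. Mesothelial genes went from 169 to 220.0 CPM to 26.5 to 30.1 CPM in HA. In IgG they went from 518 to 1028 CPM to 113.5 to 205 CPM. The part of all these other cells in the values of the Krüppel-like factors was not tested.

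Few other members of the family could be followed. Of 18 further KLF and SP genes listed, 8 were in the table and 7 were tested in HA, of which 2 rose with time, not far from the 18.7% of all genes tested. Klf16, a Sin3-binding relative of Klf9 and Klf13, went from a mean of 9.56 to 41.1 CPM (log2 fold change 2.38 ± 0.29, edgeR, adjusted p = 2.59e-06), and Klf11, a second TGF-β inducible early gene, from 12.9 to 23.0 CPM (1.09 ± 0.29, edgeR, adjusted p = 0.00678). Klf5, an activator of proliferating epithelium and smooth muscle, had a log2 fold change of 1.06 ± 0.43 (edgeR, adjusted p = 0.0746) and Sp3 one of -0.33 ± 0.36 (edgeR, adjusted p = 0.507). In IgG, 2 of these genes could be tested and neither was called. Klf16 and Klf11 were below the count filter there. Klf16 went from a mean of 7.22 to 35.2 CPM in IgG, on 3 to 7 counts per T3 library. Klf11 went from 16.9 to 10.1 CPM, on 1 to 2 counts per T3 library.

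Genes that work with the factors or upstream of them were counted from lists, to be read against the shares of all genes tested, 18.7% higher and 15.1% lower in HA and 5.46% called in IgG. The counts for 10 tested corepressors and coactivators, 2 higher and 1 lower, were near those shares. Sin3b (0.85 ± 0.18, adjusted p = 0.00114) and Ctbp1 (0.70 ± 0.18, adjusted p = 0.00468) rose in HA and the deacetylase Hdac2 fell by 1.07 on the log2 scale (adjusted p = 0.0164, all edgeR), and 0 of 7 were called in IgG. Of the kinases and MEF2 factors of the ERK5 arm, which drives Klf2 and Klf4 under shear stress, 4 were tested in HA and 3 in IgG, and 0 were called in either; Map3k3 had the smallest p, at 0.55 ± 0.24 (edgeR, adjusted p = 0.0864). Of 9 TGF-β genes, the arm that induces Klf10, 4 rose and 3 fell in HA, against 18.7% and 15.1% of all genes tested. The signal transducer Smad3 (1.88 ± 0.27, adjusted p = 2.27e-05) and the inhibitor Smad7 (1.52 ± 0.26, adjusted p = 0.000169) were among those that rose, and the ligand Tgfb3 fell by 1.01 (adjusted p = 0.000317) and the receptor Tgfbr2 by 1.05 (adjusted p = 0.000795, all edgeR) on the log2 scale. Of the 5 TGF-β genes tested in IgG, 0 were called, where 5.46% of all genes were. Smad3 and Smad7 were below the count filter in IgG, so their change there was not tested.

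The glucocorticoid list, which goes with Klf9, moved in both pull-downs. In HA, 5 of 7 genes rose and 1 fell (18.7% and 15.1% of all genes tested did). The median of the 7 on the log2 scale was 1.81, and that of all genes -0.02. The kinase Sgk1 rose by 3.42 ± 0.31 (adjusted p = 2.89e-08), the phosphatase Dusp1 by 2.79 ± 0.25 (adjusted p = 6.86e-08) and the clock gene Per1 by 3.63 ± 0.40 (adjusted p = 0.000230, all edgeR), all of which respond to other stimuli too. Fkbp5 (1.815 ± 0.33, adjusted p = 0.000384) and Zbtb16 (1.75 ± 0.52, adjusted p = 0.0175, both edgeR) rose in HA as well. Tsc22d3, which encodes the glucocorticoid-induced leucine zipper, was at -0.17 ± 0.23 (edgeR, adjusted p = 0.594), and Nr3c1, the receptor itself, fell by 1.06 (edgeR, adjusted p = 0.00111). In IgG, 3 of 6 rose, against 4.43% of all genes tested: Dusp1 (3.01 ± 0.34, adjusted p = 7.20e-05), Per1 (3.40 ± 0.69, adjusted p = 0.0239) and Fkbp5 (1.78 ± 0.43, adjusted p = 0.0280, all edgeR). Of 6 tested genes known as targets of these factors, 3 rose in HA, against 18.7% of all genes tested: the cell cycle inhibitor Cdkn1a (4.37 ± 0.20, adjusted p = 1.02e-12), the cyclin Ccnd1 (1.79 ± 0.18, adjusted p = 2.05e-07) and thrombomodulin, Thbd (0.82 ± 0.19, adjusted p = 0.00256, all edgeR). Of 5 tested in IgG, 2 rose, against 4.43% of all genes tested, namely Cdkn1a (3.48 ± 0.35, adjusted p = 2.67e-05) and Thbd (1.31 ± 0.34, adjusted p = 0.0392, both edgeR). The list's classic endothelial targets Nos3 and S1pr1 were below the count filter in both pull-downs. Whether the factors acted on any gene of this list was not tested.

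**Figure D4:**
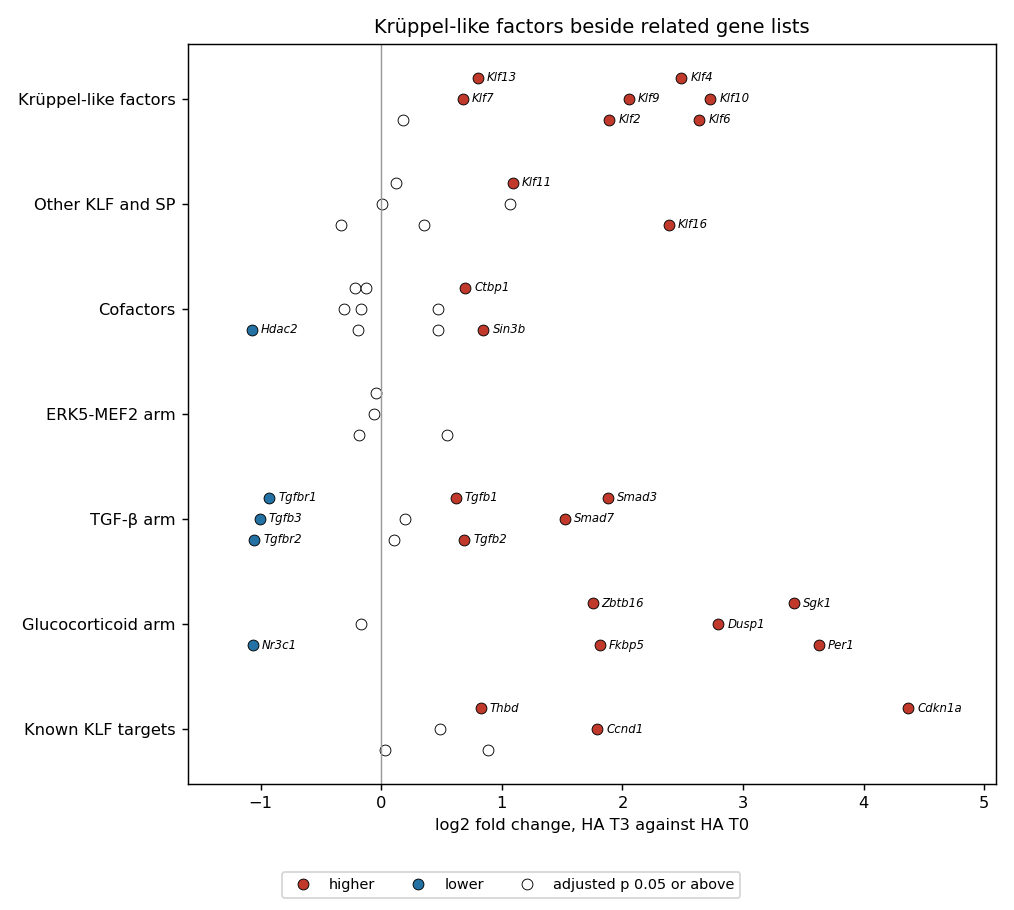
Log2 fold change between HA T3 and HA T0 (edgeR) for the Krüppel-like factors and 6 related gene lists; each point is a gene, red higher, blue lower and white with an adjusted p of 0.05 or above. The ERK5-MEF2 list holds no coloured point, and Cdkn1a, at 4.37, lies farthest to the right.

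Patterns over the 12 libraries were compared by Pearson's r of log2 (TMM-scaled CPM + 1), as a description, since libraries of a group and the 2 pull-downs of an animal are not independent. Among 10314 genes, those most like Klf6 were Nfkbia (r = 0.990) and Ier3 (r = 0.989), both early response genes of NF-κB signalling. Those most like Klf2 were Nfkb2 (0.969) and Mir22hg (0.958), like Klf4 Stk40 (0.968) and Flot2 (0.954), like Klf9 Irs2 (0.968) and Ccrn4l (0.963), and like Klf10 Trafd1 (0.955) and Zbtb7b (0.948). For Klf3 they were Nrbp2 (0.955, n = 12) and Iqcb1 (0.921), for Klf7 Begain (0.924) and Stx3 (0.912), and for Klf13 Cdc42se2 (0.915) and Apex2 (0.909). Within the family, Klf2 and Klf4 were most alike (r = 0.946), followed by Klf6 and Klf9 (r = 0.891), whereas Klf7 and Klf10 had an r of -0.04. Every r of Klf10 includes replicate 1 of IgG T0 and of IgG T3, which held 0 Klf10 counts. The weight of these shallow libraries in its r values was not tested.

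**Figure D5:**
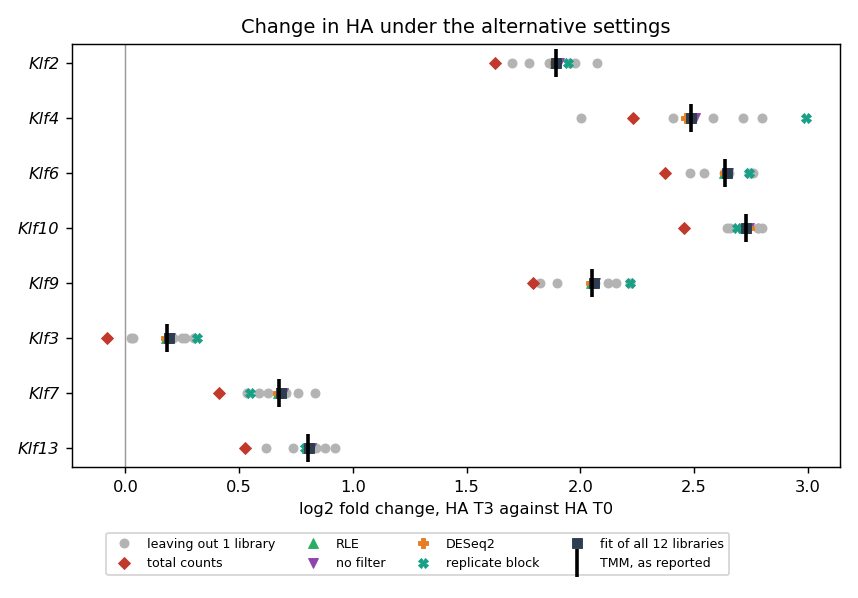
Log2 fold change between HA T3 and HA T0 for each factor as reported (black bars) and under the alternative settings (symbols), including each library left out in turn. Klf2, Klf4, Klf6, Klf9 and Klf10 stay at or above 1.62 in every setting shown, Klf7 and Klf13 between 0.41 and 0.92, and Klf3 crosses 0 with total counts.

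In HA, 5 factors (Klf2, Klf4, Klf6, Klf9 and Klf10) were called higher at T3 in each of 12 alternative settings, Klf13 in 10, Klf7 in 8 and Klf3 in 0. Klf4 moved the most, from 2.00 without replicate 4 of HA T0 to 2.99 with the replicate number as a block. In IgG, Klf4 and Klf6 were called in 12 of 12, Klf2 in 10 and Klf9 in 9.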

How the data were processed

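The samples were 12 bulk MARS-seq libraries, a 3′ method with unique molecular identifiers, from pull-downs of 6 mice. According to the labels, cutadapt, STAR (2.4.2a), HTSeq and DESeq2 (1.26.0) were used with mm10, and the authors deposited raw counts of unique molecules per gene, in a window from 1000 bases before to 100 bases after the 3′ end. The series table and the single files differed at 0 values. Whether counting used strand is not given in the sources used here.

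Groups and replicate numbers were taken from the sample titles. Each contrast was fitted on the deposited counts of its 6 libraries (the interaction on all 12) with edgeR 4.0.16 in R 4.3.3 (TMM, filterByExpr, robust glmQLFit, glmQLFTest), Benjamini-Hochberg adjustment over all genes tested and a threshold of 0.05. The SE is the absolute log2 fold change divided by the square root of F. CPM is the count over the library's total in the table. Other settings were RLE and total-count scaling, no filter, DESeq2 1.42.0, a replicate block, the fit of all 12 libraries and each library left out. Scripts were tested on simulated data.

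The factors and gene lists were chosen with earlier results of these data known. The text names all 8 factors, up to 4 genes per list by smallest p in either time contrast, with further list genes named for their role after their values were seen, and the 2 genes most like each factor. Pull-downs with the same number at a time come from the same animal; their deviations from the group means correlated at 0.254 to 0.265 at T0 and at 0.0746 to 0.151 at T3. Each animal is 1 replicate, and no 2 libraries of a group agreed within sampling noise (chi-square per degree of freedom 3.50 to 10.1). A glial marker listed at first is not reported here.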

Additional observations from a re-analysis of the deposited data

How the results depend on the processing

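Over 505 values of single factors under the alternatives, 438 kept their direction and side of the threshold, 25 kept the direction but lost the call, 11 gained a call, 30 turned sign and 1 had no adjusted p from DESeq2. The cause of these changes was not tested. HA T0 against IgG T0 called 1 factor, 2 with total counts or DESeq2, 0 without a filter, 4 with the replicate block, 3 in the fit of all 12 libraries and 0 to 1 with a library left out. HA T3 against IgG T3 called 3, 4 with total counts, 2 without a filter, 1 in the fit of all 12 and 1 to 3 with a library left out (849 to 1977 genes against 1578). HA T3 against HA T0 called 7, 5 with total counts and 6 with the replicate block or in the fit of all 12. It called 6 to 7 with a library left out (2217 to 3201 genes against 3187). Total counts called 3862 genes there and the fit of all 12 called 2264. IgG T3 against IgG T0 called 4 and 2 to 4 with a library left out, and 285 genes, 519 without a filter, 705 in the fit of all 12 and 162 to 334 with a library left out. The interaction called 34 genes, 20 with RLE, 8 with total counts, 80 with DESeq2, 158 with the replicate block and 5 to 95 with a library left out, and 0 factors throughout.

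Between times the replicate numbers belong to different animals, and the block is only a shared number. There it took the call from Klf7 in HA (0.55, adjusted p = 0.0505, edgeR) and changed no other factor's call. Numbers 1 and 4, the ones shared by both times, correlated at 0.153 and 0.0128 in HA and at 0.154 and 0.00800 in IgG. At T3 the block within animals changed no factor's call.

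Reversed signs were all of values that were not called. For HA T0 against IgG T0, Klf6 (-0.05) was 0.039 without a filter and -0.18 to 0.085 with a library left out. For HA T3 against IgG T3, Klf10 (0.06) was -0.031 with total counts and -0.23 to 1.26 with a library left out, and Klf9 (-0.26) was 0.020 in the fit of all 12 and -0.55 to 0.068 with a library left out. For HA T3 against HA T0, Klf3 was -0.082 with total counts. In the interaction, total counts gave -0.19 for Klf2, -0.061 for Klf4, -0.34 for Klf7 and -0.16 for Klf13, and Klf7 was -0.13 with RLE, -0.12 with DESeq2 and -0.019 with the replicate block. With a library left out, the interaction ran from -0.24 to 0.41 for Klf2, from -0.16 to 0.55 for Klf4, from -0.40 to 0.24 for Klf7 and from -0.15 to 0.35 for Klf13.

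Depth limited IgG most: the IgG T3 libraries held 88136 to 248522 counts, and Klf10 could not be tested over time there.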
